A study of Schizosaccharomyces pombe with 8 samples.

Results

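Transcript signals from Affymetrix arrays were ranked in 4 cultures of a wild-type strain of the fission yeast Schizosaccharomyces pombe, a rod-shaped yeast that grows as haploid cells and divides by fission. The 4 arrays, 1 per culture, were those labelled wild type among the 8 of the series, and no comparison with the other strain was made. All 4 cultures were grown at 30 °C to an A600 of 1.0 in Edinburgh minimal medium with adenine, histidine, leucine, lysine and uracil at 50 mg/l each. The labels call the strain wild type and give neither its mating type nor any marker allele, and they say that RNA came from replicate cultures, so the spread below covers culture, labelling and hybridisation together. Of 4994 yeast probe sets, 2916 carried 1 gene symbol, and with the brightest probe set kept for each gene 2897 genes were named. A signal was available on at least 1 array for 2889 of them, which were ranked by the mean log2 signal over the 4 arrays, and on all 4 arrays for 2872.

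Edinburgh minimal medium is a defined medium with glucose and ammonium, in which the cells make most of their amino acids and vitamins themselves. A fission yeast cell in such a medium ferments glucose to ethanol, respires part of it, and spends much of its transcription on ribosomes. When nitrogen runs out, haploid cells of opposite mating type (P and M) respond to each other's pheromone, fuse, and enter meiosis, which ends in spores. The genes of that programme are known to be silent or weakly transcribed during vegetative growth.

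A probe-set signal depends on how well its probes hybridise as well as on the transcript, and no signal here is corrected for length. The ranks therefore order signals, not numbers of molecules. The gene mae1, a malate transporter, shows how large that can be: its 3 probe sets ran from 6.57 to 12.21, a difference of 5.64 on the log2 scale, and the highest was used. For the 13 genes with several probe sets the difference had a median of 0.51, and it was at least 1 for 5 of them. The 17 reporter control probe sets, whose targets are not given in the sources used here, were used as the measure of background. The brightest of them read 4.81, 5.11, 4.65 and 4.88 in cultures 1 to 4, against array medians of 9.62, 9.62, 9.64 and 9.62 over the yeast probe sets. A gene was counted at control level where every array with a value lay at or below that array's brightest control. The gene zfs1, for a zinc finger protein that destabilises messenger RNAs, is the one that the other strain of the series is deficient in. It read 10.48, 10.54, 10.39 and 10.62 here, far above the controls on every array, as the wild-type label asks.

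Culture 4 stood apart from the other 3. Its rank correlation with cultures 1, 2 and 3 was 0.961, 0.961 and 0.951 over 2877 to 2879 genes, whereas the pairs among cultures 1 to 3 lay between 0.980 and 0.989. These correlations are across genes of the same arrays and describe likeness only. The main counts that rest on the spread between cultures are given with and without culture 4. Without culture 4, 282 of the 289 genes of the brightest 10% and 35 of the 37 genes at control level stayed in their class. Without culture 1, 2 or 3, 286, 285 and 286 of the brightest stayed, and 37, 36 and 36 of those at control level. The compared means share 3 arrays, so much of this overlap is built in.

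The signals fell into a narrow top, a broad middle and a long tail. The brightest 10% of genes (289 of 2889) had means between 11.92 and 13.16, a span of 1.24. The highest signals on arrays 1 to 4 were 13.14, 13.23, 13.19 and 13.10. Whether signals level off near the top was not tested, so close ranks there are uncertain. The first gene outside, the stress-induced glycerol-3-phosphate dehydrogenase gene gpd1 at 11.92, was level with the last inside, the clathrin heavy chain gene chc1 at 11.92. The middle 10%, around the median of 9.70, spanned 0.36, from 9.52 to 9.88. The dimmest 10% spanned 8.33, from 7.70 down to -0.63. Summed over genes on the linear scale, the brightest 10% held 37.8% ± 0.56 of the signal (SD, n = 4 cultures). At control level were 37 genes (1.28%), another 55 were above the controls on some arrays only, and 2797 were above them on all 4.

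**Figure D1:**
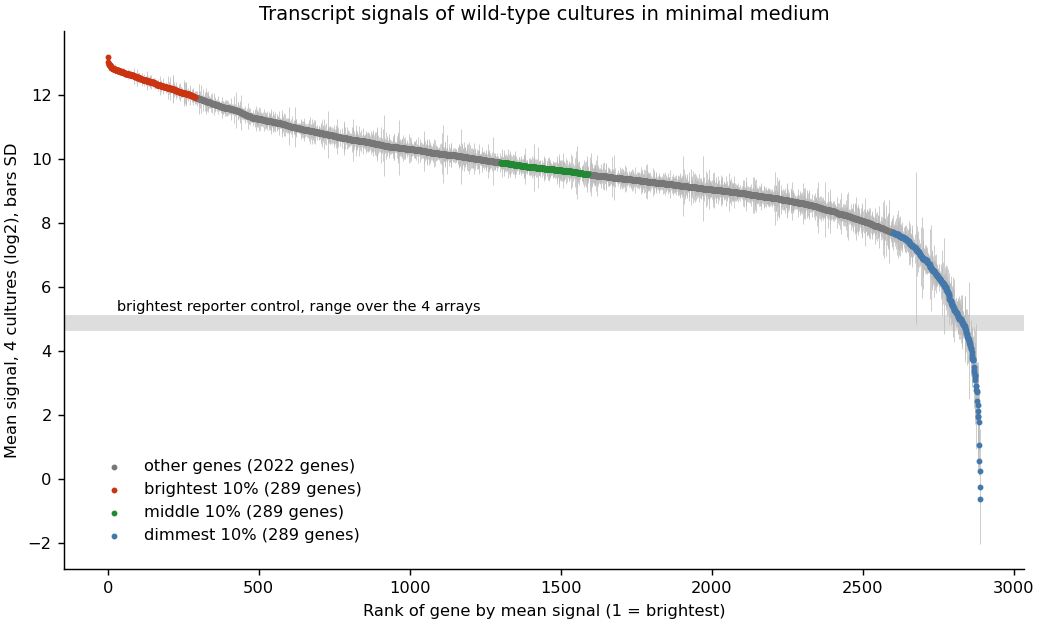
Mean log2 signal of 2889 genes (vertical axis, bars SD over the cultures with a value) against rank (horizontal axis), with the brightest, middle and dimmest 10% in colour and the range of the brightest reporter control, 4.65 to 5.11, in grey. The curve falls slowly from 11.92 to 7.70 and drops steeply in the dimmest 10%, where it crosses the controls.

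Ribosomal protein genes filled the top of the ranking. Of 119 cytosolic ribosomal protein genes measured, 115 were among the brightest 10%, 72 of 74 for the large subunit and 43 of 45 for the small subunit, where the class takes 10% of all genes. They made up 18 of the 25 brightest genes and 71 of the brightest 100, and together held 17.2% ± 0.18 of the summed signal. The brightest gene of all, rpl4102 (SPAC3F10.18C), encodes a short protein of the large subunit and read 13.14, 13.23, 13.19 and 13.10. The next, rpl35 (SPCC613.05C), read 12.96, 13.04, 13.01 and 13.04. In the small subunit rps13 (SPAC6F6.07C) led with 12.94, 13.01, 12.98 and 12.85. The 4 cultures lay close together for each of these genes, and the median SD was 0.07 for either subunit.

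The other ribosomal members of the top 25 were rpl31, rpl402, rpl39, rps21, rps20, rps2502, rps3, rpl6, rpp0 (the base of the acidic stalk), rpl2801, rpl44, rpl1602, rpl901, rps2602 and rpl26, with means from 12.95 for rpl31 down to 12.79 for rpl26. The 4 ribosomal genes outside the brightest 10% were each 1 of several genes for the same protein. The gene rpl1603 (SPBC2G2.05) read 10.91, 10.52, 10.99 and 11.03, below its copies rpl1602 (mean 12.80) and rpl1601 (12.77) on every array. The remaining genes outside were rpl102 at 11.86, against 12.78 for rpl101, rps2202 at 11.89 and rps1401 at 11.69. Values of such near-identical copies are uncertain, since hybridisation of 1 copy's transcript to the probes of another was not tested.

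Genes of translation beyond the ribosome were bright but less uniform. Of 22 translation factor genes, 13 were among the brightest 10% and none was among the dimmest, with a median of 12.07. The gene tif512 (SPBC336.10C), for the elongation and termination factor eIF5A, was the third brightest of all genes at 12.97, 12.92, 13.02 and 12.93, and tef5, for a subunit of the exchange factor of elongation factor 1, averaged 12.65 ± 0.06. The lowest were tif452, for another cap-binding protein, at 10.11 ± 0.17, and gcn2, for the kinase that slows initiation when amino acids are short, at 9.91 ± 0.27. Both genes of the complex that receives new polypeptides at the ribosome, egd2 (SPBC25H2.05; 12.91, 12.94, 12.94 and 12.87) and btf3 (12.75 ± 0.07), were as bright as ribosomal genes. Of 15 aminoacyl-tRNA synthetase genes 9 were in the brightest class, led by yrs1 (tyrosine) at 12.25 ± 0.04 and grs1 (glycine) at 12.23, and qrs1 (glutamine) was lowest at 10.19 ± 0.14.

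Genes for making ribosomes had lower signals than the ribosomal protein genes. Of 34 ribosome biogenesis genes 4 were in the brightest class and the median was 10.58. The gene of the nucleolar methyltransferase fibrillarin, fib1, averaged 12.41 ± 0.04, and nop10, for a protein of the pseudouridylation particles, 12.23 ± 0.11. The exosome genes rrp46 and rrp6 closed the list, rrp46 at 9.39 ± 0.17 and rrp6 at 9.11 ± 0.39. None of the 31 RNA polymerase subunit genes was in the brightest class. Their median was 10.55, from nuc1, for the largest subunit of RNA polymerase I, at 11.79 ± 0.32, and rpc40, shared by polymerases I and III, at 11.68 ± 0.03, to rpc17 at 9.49 ± 0.29 and rpb9, a small polymerase II subunit, at 8.93 ± 0.41.

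Glycolysis had the highest median of the 47 lists, 12.68. Of its 13 genes 10 were in the brightest class. Aldolase, fba1 (SPBC19C2.07), read 12.85, 12.92, 12.92 and 12.70. Triose-phosphate isomerase, tpi1, averaged 12.84 ± 0.04. The 3 genes outside were the hexokinase hxk1 at 11.66 ± 0.10, the alcohol dehydrogenase adh4 at 10.99 ± 0.23 and the other enolase, eno102, at 9.44 ± 0.25. The main enolase, eno101, read 12.81, 12.93, 12.85 and 12.67 against 9.19, 9.32, 9.47 and 9.77 for eno102, so the order held in every culture. The main alcohol dehydrogenase, adh1, averaged 12.68 ± 0.09.

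Hexose transporter genes split into a few bright members and a larger number near the bottom. Of 8 hexose transporter genes, ght5 (SPCC1235.14), for the high-affinity glucose transporter, read 12.24, 12.39, 12.61 and 11.91, and was the single member in the brightest class. The genes ght8 (11.50, 11.77, 11.49 and 11.47) and ght2 (11.16, 11.25, 11.03 and 10.77) followed, and the lowest of these values, 10.77, was above every value of the other 5. Those 5 were ght4 at a mean of 7.77, ght1 at 6.71, ght7 at 6.33, ght6 at 5.82 and ght3 at 5.60, of which 4 were among the dimmest 10%, which takes 10% of all genes. No hexose transporter gene was at control level. The gluconeogenic enzyme fructose-1,6-bisphosphatase, encoded by fbp1 and known to be repressed by glucose, averaged 7.64 ± 0.76.

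Downstream of glycolysis, 6 of 14 pyruvate dehydrogenase and citrate cycle genes were in the brightest class, with a median of 11.84. The succinate dehydrogenase flavoprotein gene sdh1 averaged 12.26 ± 0.05, and the NAD-linked isocitrate dehydrogenase gene idh1 was lowest at 10.68 ± 0.13. The pentose phosphate genes tal1 (transaldolase) and zwf1 (glucose-6-phosphate dehydrogenase) averaged 12.26 ± 0.25 and 11.96 ± 0.19. Of 35 respiratory chain and ATP synthase genes 3 were in the brightest class, around a median of 10.93. The ATP synthase subunit gene atp2 averaged 12.15 ± 0.09. The lowest members, atp12 at 9.02 ± 0.14 and atp10 at 8.29 ± 0.14, encode proteins that help assemble the enzyme rather than subunits of it.

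**Figure D2:**
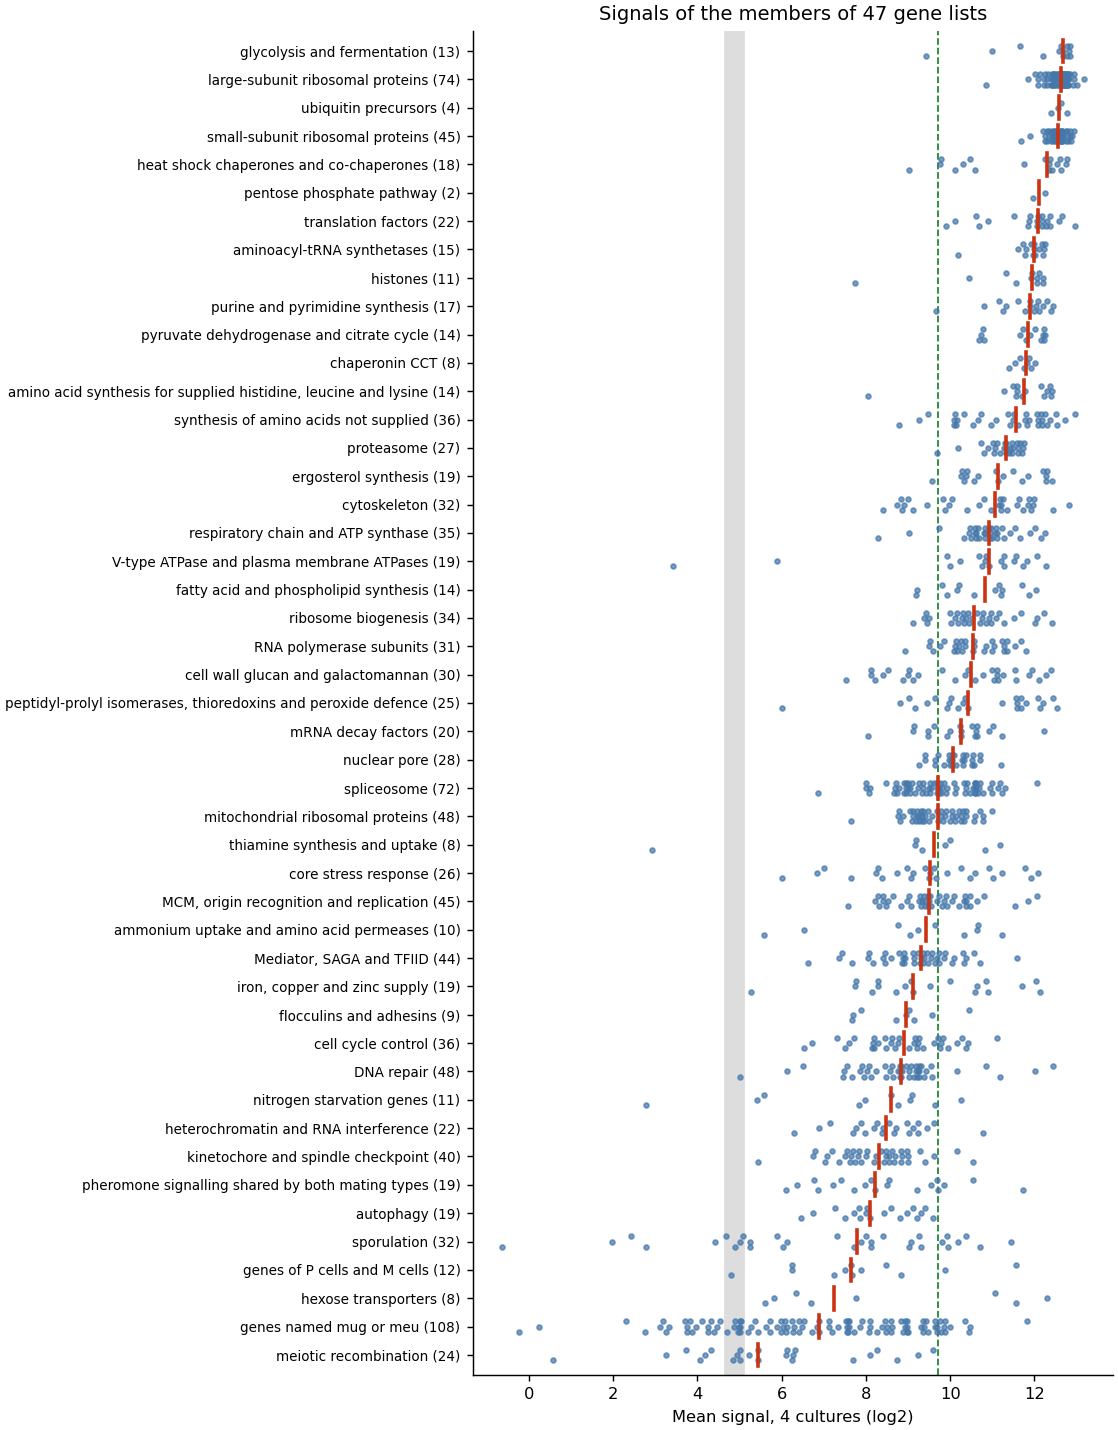
Mean log2 signal of the members (points) of 47 gene lists (rows, number of ranked genes in brackets), with each list's median as a red bar, the median of all 2889 genes at 9.70 as a dashed line and the range of the brightest reporter control in grey. Glycolysis and the ribosomal proteins lie at the top with medians of 12.68, 12.63 and 12.55, and meiotic recombination at the bottom with 5.44.

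Many biosynthetic genes were bright, both in pathways whose product was supplied and in pathways whose product was not. All cultures had the same medium, so an effect of supply on a gene was not tested. The histidine, leucine and lysine pathways, whose end products were supplied, had 6 of 14 genes in the brightest class and a median of 11.75. Pathways of amino acids that were not supplied had 13 of 36 and a median of 11.57. That list held 3 branched-chain genes, which also act in the synthesis of the supplied leucine, and without them, a count chosen after seeing the data, it had 10 of 33 and a median of 11.49. The leucine genes leu3, for isopropylmalate synthase, and leu1, for isopropylmalate dehydrogenase, averaged 12.42 ± 0.13 and 12.29 ± 0.06. The lysine gene lys3 averaged 12.39 ± 0.07, and his7 and lys7 were the lowest at 11.28 ± 0.09 and 8.04 ± 0.36. Among pathways without a supplied product, methionine synthase, met26 (SPAC9.09), was the fourth brightest of all genes at 12.97, 13.11, 13.02 and 12.70. In the same list cys12 (9.27 ± 0.11) and arg7 (8.78 ± 0.23) were lowest. The branched-chain aminotransferase gene eca39, which serves leucine as well as isoleucine and valine, averaged 12.73 ± 0.09.

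Purine and pyrimidine genes had a median of 11.90 with 8 of 17 in the brightest class, with adenine and uracil supplied. The GMP pathway gene gua1 averaged 12.45 ± 0.30 and ade2 12.39 ± 0.02, and ura2 was lowest at 9.67 ± 0.24. Genes that are often mutated as markers in laboratory strains were all well above the controls: ura4 read 11.79, 11.80, 11.74 and 11.78, leu1 12.29, 12.36, 12.29 and 12.21, ade6 11.03, 11.29, 11.02 and 11.27, his3 11.38, 11.81, 11.41 and 11.74, and lys1 11.87, 11.97, 11.81 and 11.45. A point mutation need not change a probe signal, so these values say only that the probe sets read above the controls. In sterol synthesis 5 of 19 genes were in the brightest class, led by hcs1, for HMG-CoA synthase, at 12.42 ± 0.08, and the median was 11.13.

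Thiamine genes had 1 member listed at control level, on a single value, and none in the brightest class. The gene nmt1 (SPCC1223.02), for an enzyme that makes the pyrimidine part of thiamine and known for strong repression by thiamine, had a value on 1 of 4 arrays, 2.92 in culture 4, where the brightest control read 4.88. Whether that probe set measures the transcript could not be settled, so its value gives no level for the gene. The genes pho4, for a thiamine-repressible phosphatase, and thi4, for another synthetic step, are known for the same repression. They read 11.22, 11.29, 11.34 and 10.87, and 10.93, 10.91, 10.86 and 10.62. The list as a whole had a median of 9.61. The transporter gene thi9 averaged 9.99 ± 0.09 and the transcription factor gene thi1 9.87 ± 0.11. Next were thi2 at 9.34, bsu1 at 9.19 ± 0.25 and thi5 at 9.17 ± 0.16.

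Genes of metal and nitrogen supply spread over the whole range. The copper transporter genes ctr5 (12.15, 12.23, 12.09 and 12.02) and ctr4 (11.99, 12.09, 11.98 and 12.05), whose products work as a complex, were the 2 of 19 metal supply genes in the brightest class. The ferric reductase gene frp1 and the siderophore transporter gene str3 were the lowest, at 7.74 ± 0.50 and 5.27 ± 0.98. Among ammonium transporters amt2 averaged 10.66 ± 0.07, amt1 8.77 ± 0.68 and amt3 6.53 ± 0.32. Among amino acid permeases aat1 averaged 11.23 ± 0.21, and isp5, first found as a gene of sexual differentiation, 5.57 ± 0.60. Of the plasma membrane proton pumps, pma1 read 12.17, 12.40, 12.41 and 12.15, and its relative pma2 (SPCC1020.01C) 3.42, 3.38, 2.86 and 3.99, at control level on every array.

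Protein folding genes were bright with some exceptions. Of 18 heat shock chaperone genes 10 were in the brightest class, with a median of 12.30. The Hsp70 genes ssc1, of the mitochondrion, and ssa2, of the cytosol, averaged 12.77 ± 0.11 and 12.74 ± 0.13, while ssa1, for the close relative of Ssa2, averaged 9.02 ± 0.44. The 8 chaperonin CCT genes, whose products form 1 ring complex, lay between 11.39 (cct1) and 12.01 (cct3). The 27 proteasome genes had a median of 11.32, and the highest, rpt1, for an ATPase of the base, averaged 11.76 ± 0.12. The lowest, the ubiquitin receptor genes rpn1301 and rpn1302, averaged 10.19 ± 0.44 and 9.68 ± 0.04. No proteasome gene was in the brightest class. All 4 ubiquitin precursor genes, a list added after values were seen, were in it, from ubi3 at 12.78 ± 0.05 to ubi4 at 12.40 ± 0.22. Parts other than ubiquitin that these precursors may encode were not considered, so their signals are not set against those of the proteasome.

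Core stress genes lay around the middle, with a median of 9.51 and 1 of 26 in the brightest class. That gene, hsp9, for a small heat shock protein, read 12.13, 11.85, 12.06 and 12.26. The list closed with lsd90 at 6.85 ± 0.38 and gst1, for a glutathione transferase, at 6.11, 6.39, 5.68 and 5.83. Histone genes had a median of 11.94, with 6 of 11 in the brightest class. The histone H3 gene hht1 averaged 12.21 ± 0.05, the H2A variant gene pht1 10.45 ± 0.18 and the centromeric H3 variant gene cnp1 7.74 ± 0.22. The actin gene act1 (SPBC32H8.12C) was rank 17 of all genes at 12.72, 12.92, 12.77 and 12.90.

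The spliceosome and the mitochondrial ribosome had medians at that of all genes, with members spread along the ranking. Of the 289 genes of the middle 10%, 82 belonged to a list, a smaller share than the 1242 of all 2897 named genes that did. Among the 82 were 12 of 72 spliceosome genes and 8 of 44 genes of Mediator, SAGA and TFIID. They also held 7 of 48 mitochondrial ribosomal protein genes and 9 of 108 ranked genes named mug or meu, where the class takes 10% of all genes. The spliceosome (72 genes) had a median of 9.71 and the mitochondrial ribosome (48 genes) 9.70, both at the median of all genes, 9.70. The mitochondrial ribosomal protein genes ran from mrpl32, at 11.09, 11.01, 10.94 and 10.98, and rsm23 at 10.78 ± 0.05 to mrpl44 at 8.77 ± 0.55 and mrp17 at 7.65 ± 0.27, and none was among the brightest 10%, against 115 of 119 for the cytosolic ribosome. In the spliceosome srp2, an SR protein gene, averaged 12.05 ± 0.41, and prp18, of the last step of splicing, 6.85 ± 0.17. Nuclear pore genes had a median of 10.06, the Mediator, SAGA and TFIID subunits 9.30 and the replication genes 9.49.

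The 8 genes nearest the median rank came from several functions. They were tmp1, fis1, for mitochondrial fission, mdl1, uds1, rsc1, for a chromatin remodelling subunit, pli1, for a SUMO ligase, set7 and ins1, all with means of 9.69 to 9.70. Their cultures were not equally close. The gene tmp1 read 9.78, 9.69, 9.67 and 9.66, and pli1 9.79, 9.68, 10.04 and 9.28. The gene set7, by contrast, was highest in culture 4, at 9.52, 9.54, 9.56 and 10.17.

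Regulators of division lay in the lower part. Cell cycle genes had a median of 8.91 with 5 of 36 in the dimmest 10% and none in the brightest. The mitotic cyclin gene cdc13 averaged 11.11 ± 0.10, and the transcription factor genes res2 and rep1 6.73 ± 0.28 and 6.54 ± 0.58. The kinetochore and spindle checkpoint list had a median of 8.31 with 11 of 40 ranked genes in the dimmest 10%, from fta3 at 10.55 ± 0.41 to duo1 at 5.44 ± 0.58. DNA repair genes had a median of 8.84. The highest of them, rad24 and rad25 at 12.45 ± 0.06 and 12.01 ± 0.11, encode 14-3-3 proteins that act in many pathways, and the alkylation repair gene mag2 was lowest at 5.00 ± 0.62. Genes of heterochromatin and RNA interference had a median of 8.47. The histone deacetylase gene clr6 averaged 10.78 ± 0.05, the methyltransferase gene clr4 6.88 ± 0.57 and the polymerase gene cid12 6.30 ± 0.17. Autophagy genes ran from 9.59 (atg5) to 6.46 (atg20).

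Genes of mating were dim but mostly measurable. The pheromone pathway shared by both mating types had a median of 8.21. The GTPase genes cdc42, which also serves polarity in growing cells, and ras1 averaged 11.72 ± 0.05 and 10.54 ± 0.24, while byr2 and ste4, for the kinase and its partner below Ras1, averaged 6.36 ± 0.26 and 6.11 ± 0.29. The transcription factor gene ste11, the switch to sexual development, read 7.69, 7.89, 8.18 and 8.18, above the controls on every array. Among 12 ranked genes of P or M cells the protease gene sxa1 was highest at 11.57 ± 0.05. The P-cell regulator gene map1 was lowest, at 5.05, 4.54, 5.09 and 4.51, around the controls. The M-factor precursor gene mfm2 read 8.23, 7.74, 8.37 and 9.60, and mfm3, for the same pheromone, averaged 6.25 ± 0.24. In bulk RNA a low level in every cell and a higher level in a few cells cannot be told apart. Receptor genes of both kinds were low: map3, the receptor that P cells use for M-factor, averaged 7.24 ± 0.25, and mam2, the M-cell receptor, 6.25 ± 0.17.

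Genes of meiosis and sporulation made up most of the named genes at control level. The meiotic recombination, sporulation and mug or meu lists, the last named for genes found induced in meiosis, together held 161 genes, of which 159 were ranked. At control level were 27 of them, out of 37 such genes among all 2889 (1.28%). Another 26 were above the controls on some arrays only, 106 were above on all, 95 were among the dimmest 10% and none was among the brightest. Meiotic recombination had the lowest median of all lists, 5.44, with 6 of 24 ranked genes at control level and 19 in the dimmest 10%. Its axis and cohesin genes hop1 (mean 3.73) and rec8 (4.18) and the recombination genes rec24, rec15, rec27 and rec7 were the 6.

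Each of these lists also had members near or above the median of all genes. The highest recombination genes were rec14, also named ski8 for its part in RNA decay, at 9.60 ± 0.09 and mcp1 at 9.25 ± 0.23. The highest sporulation genes, spo20, for a lipid transfer protein of the Golgi that cells need for growth, and spo14, for a COPII factor, averaged 11.45 ± 0.05 and 10.71 ± 0.19. In the mug or meu list mug64 averaged 11.82 ± 0.08. The sporulation list had a median of 7.80 with 5 of 32 genes at control level, and the mug or meu list 6.89 with 16 of 108 ranked genes.

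The 8 lowest means with a value on all 4 arrays belonged to the pseudogene wtf3 of the wtf family (2.86, 3.17, -0.59 and 2.29), mug96 (2.08, 2.70, 1.50 and 2.96), atf21, for a bZIP factor (1.85, 4.01, 2.77 and 2.27), isp3 (1.33, 3.75, 2.88 and 3.13), meu27, mug114, mug130 and meu26. Lower means, down to -0.63 for spo4, for a meiosis-specific kinase partnered by Spo6, rested on 1 to 3 arrays. Values at this level have no useful order: the median SD of the genes at control level was 0.86. The 10 genes at control level outside the meiotic lists were wtf22, wtf3, pma2, nmt1, atf21, mel1, rsv1, grt1, mfr1 and rem1. A place outside the lists does not mean that a gene has no part in meiosis: rem1 is a meiotic cyclin gene. Just inside the class lay the septin gene spn6 at a mean of 4.41, and just above it, with all 4 arrays over their controls, atf31 at 5.20. Next to atf31 came cid11 with 5.20, 5.12, 5.19 and 5.32, also above the control on every array. Between them and spn6 lay genes above the controls on some arrays only, such as mag2 with 5.37, 4.39, 5.67 and 4.57.

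Probe sets without a single name held part of each class. Of all 4985 ranked probe sets, 2079 had no single symbol. The same was true of 118 of the brightest 498, a smaller share, and of 70 of the 107 at control level, a larger share. The brightest such probe set, 1775248_s_at, had rank 2 of all probe sets at 13.05, 13.08, 13.10 and 13.01, and 1773380_s_at, 1774919_at, 1774189_at and 1774244_at followed with means of 12.90, 12.86, 12.80 and 12.77. The functions given above are therefore those of the named genes.

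**Figure D3:**
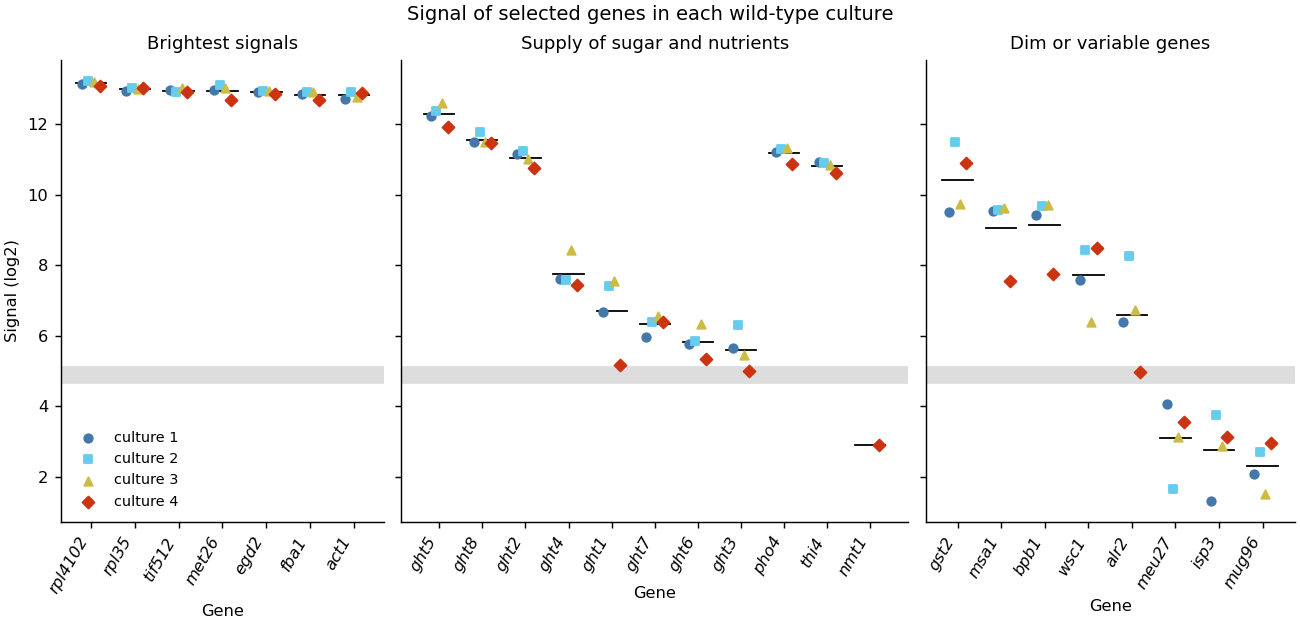
Log2 signal (vertical axis) of selected genes (horizontal axis) in each of the 4 cultures (symbols), with the mean as a line and the range of the brightest reporter control in grey. The symbols of the brightest genes nearly coincide, the hexose transporter genes fall into 3 bright and 5 dim members, and nmt1 has a single value, 2.92.

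The spread between cultures was small for bright genes and grew towards the controls. Whether a levelling of signals near the top narrowed the spread of bright genes was not tested. The SD had a median of 0.18 over all ranked genes (0.12 without culture 4). Its median was 0.08 in the brightest 10%, was larger in each following class but 1, and was 0.35 in the dimmest 10%. Of 2797 genes above the controls on every array, 114 (4.08%) had an SD of at least 0.5. Without culture 4 this number was 56, of which 44 were among the 114, and without culture 1 it was 177. An SD of at least 1 was found for alr2, ght1, msa1 and mug8.

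The steadiest genes were not only bright ones. The smallest SDs, all near 0.01 or 0.02, belonged to arx1, for a ribosome export factor (11.05, 11.03, 11.04 and 11.06), rpl39 (12.90, 12.93, 12.90 and 12.90), pik1, for a phosphatidylinositol kinase (9.54, 9.56, 9.56 and 9.57), zrg17, trs33, mep33, mcl1 and rpc82. Their means ran from 9.21 for mcl1 to 12.91 for rpl39.

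Of the 10 genes with the largest SDs, culture 4 was the farthest from the mean of the others in 6, culture 2 in 3 and culture 3 in 1. The glutathione transferase gene gst2 read 9.50, 11.51, 9.74 and 10.90, high in cultures 2 and 4. The cell wall sensor gene wsc1 read 7.60, 8.45, 6.38 and 8.51, low in culture 3. The gene alr2 read 6.41, 8.26, 6.73 and 4.98, highest in culture 2 and lowest in culture 4, and ght1 read 6.68, 7.41, 7.57 and 5.17. The dihydroxyacetone kinase gene dak2 was high in culture 2 (6.58, 8.32, 6.68 and 6.25), and mug72 ran from 5.77 in culture 1 to 8.08 in culture 4. The gene mug8 read 6.77, 7.16, 5.60 and 4.97, lowest in culture 4. The remaining members of the 10, msa1, bpb1 and vrp1, were also lowest in culture 4 and are given below with other genes of that culture. The gene cnp3, for a kinetochore protein, is left out of these counts because its value in culture 2 lay below the brightest control (8.27, 3.68, 8.01 and 8.84).

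**Figure D4:**
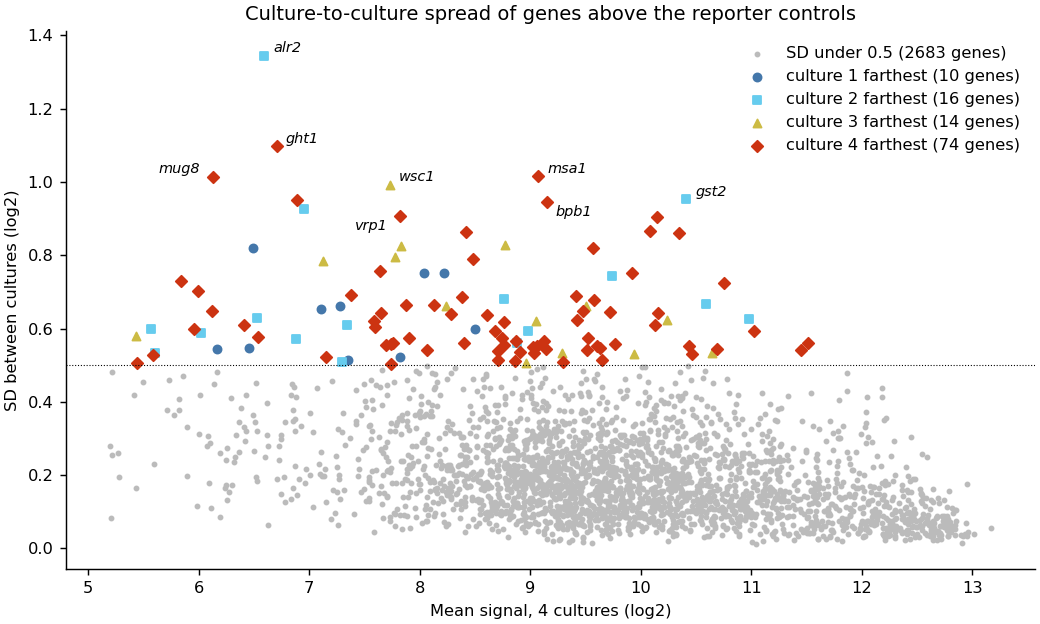
SD between the 4 cultures (vertical axis, log2) against mean signal (horizontal axis, log2) for the 2797 genes above the controls on every array, with the 114 genes of SD 0.5 or more marked by the culture farthest from the mean. Culture 4 is the farthest for 74 of them.

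Culture 4 was the farthest from the mean for 1399 of these 2797 genes (50.0%), against 302, 567 and 529 for cultures 1, 2 and 3, and for 74 of the 114 with an SD of at least 0.5. It differed at least 2-fold from the mean of the other cultures in 60 genes, 17 higher and 43 lower, where cultures 1, 2 and 3 did so in 10, 13 and 10. Genes chosen after their values were seen show the pattern. The RNA-binding protein gene msa1 read 9.53, 9.59, 9.62 and 7.55. The branch point binding protein gene bpb1 read 9.44, 9.70, 9.73 and 7.75, and rpb1, for the largest subunit of RNA polymerase II, 10.40, 10.98, 10.89 and 9.11. In each of these culture 4 lay below the 3 other cultures, which lay together for msa1 and bpb1 and less closely for rpb1.

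Some genes of vesicle coats and actin patches, also picked after their values were seen, were lower in culture 4. They were the COPII genes sec16 (8.72, 8.66, 9.13 and 7.16) and sec31 (10.10, 10.49, 10.26 and 8.82), the patch genes pan1 (10.55, 10.50, 10.73 and 8.79) and vrp1 (8.02, 8.31, 8.46 and 6.49) and the WASP gene wsp1 (7.45, 8.17, 7.39 and 6.48). The actin patch gene for fimbrin, fim1, read 11.84, 11.99, 11.92 and 11.89, with culture 4 among the others. Transcript length and RNA quality were not measured here, and their part in these shifts was not tested. Ribosome biogenesis genes were lower in culture 4 than the mean of the others in 28 of 34, with a median of -0.25. Of all genes 53.2% were lower. Translation factor genes were lower in 19 of 22 (-0.15), chaperonin CCT genes in 7 of 8 (-0.17) and hexose transporters in 7 of 8 (-0.47). Nitrogen starvation genes had a median of -0.53, but 7 of 11 were lower, not far from the share of all genes. Their median SD was 0.48, against 0.18 for all genes, and 1 member was at control level.

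The core stress list had shifts in both directions. Culture 4 was higher than the mean of the others in 19 of 26, where 46.8% of all genes were, with a median of 0.20. Culture 1 was lower in 21 of 26 with a median of -0.21, where 1388 of all genes were lower in it and 1494 higher. Culture 4 was also higher in 34 of 48 mitochondrial ribosomal protein genes with 0.13. The small heat shock protein gene hsp16 read 9.99, 10.29, 10.36 and 11.22, the metallothionein gene zym1 7.99, 7.64, 8.36 and 9.13, fbp1 7.67, 7.13, 7.07 and 8.70, and the flocculin gene pfl8 9.65, 8.85, 9.10 and 10.70. In each of these genes culture 4 was the highest. The list that holds pfl8, named flocculins and adhesins, went the other way. Culture 4 was lower in 7 of its 9 genes, where 53.2% of all genes were, with a median of -0.32. Many members of that list are regulators, such as cbf11, cbf12, mbx1 and mbx2, so its count does not describe flocculins. Shifts of this kind can come from the culture, the RNA or the array, and these cannot be told apart with 1 array per culture. Cultures 1 to 3 had list shifts of their own, of which the largest was 0.41 for the nitrogen starvation genes in culture 2.

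**Figure D5:**
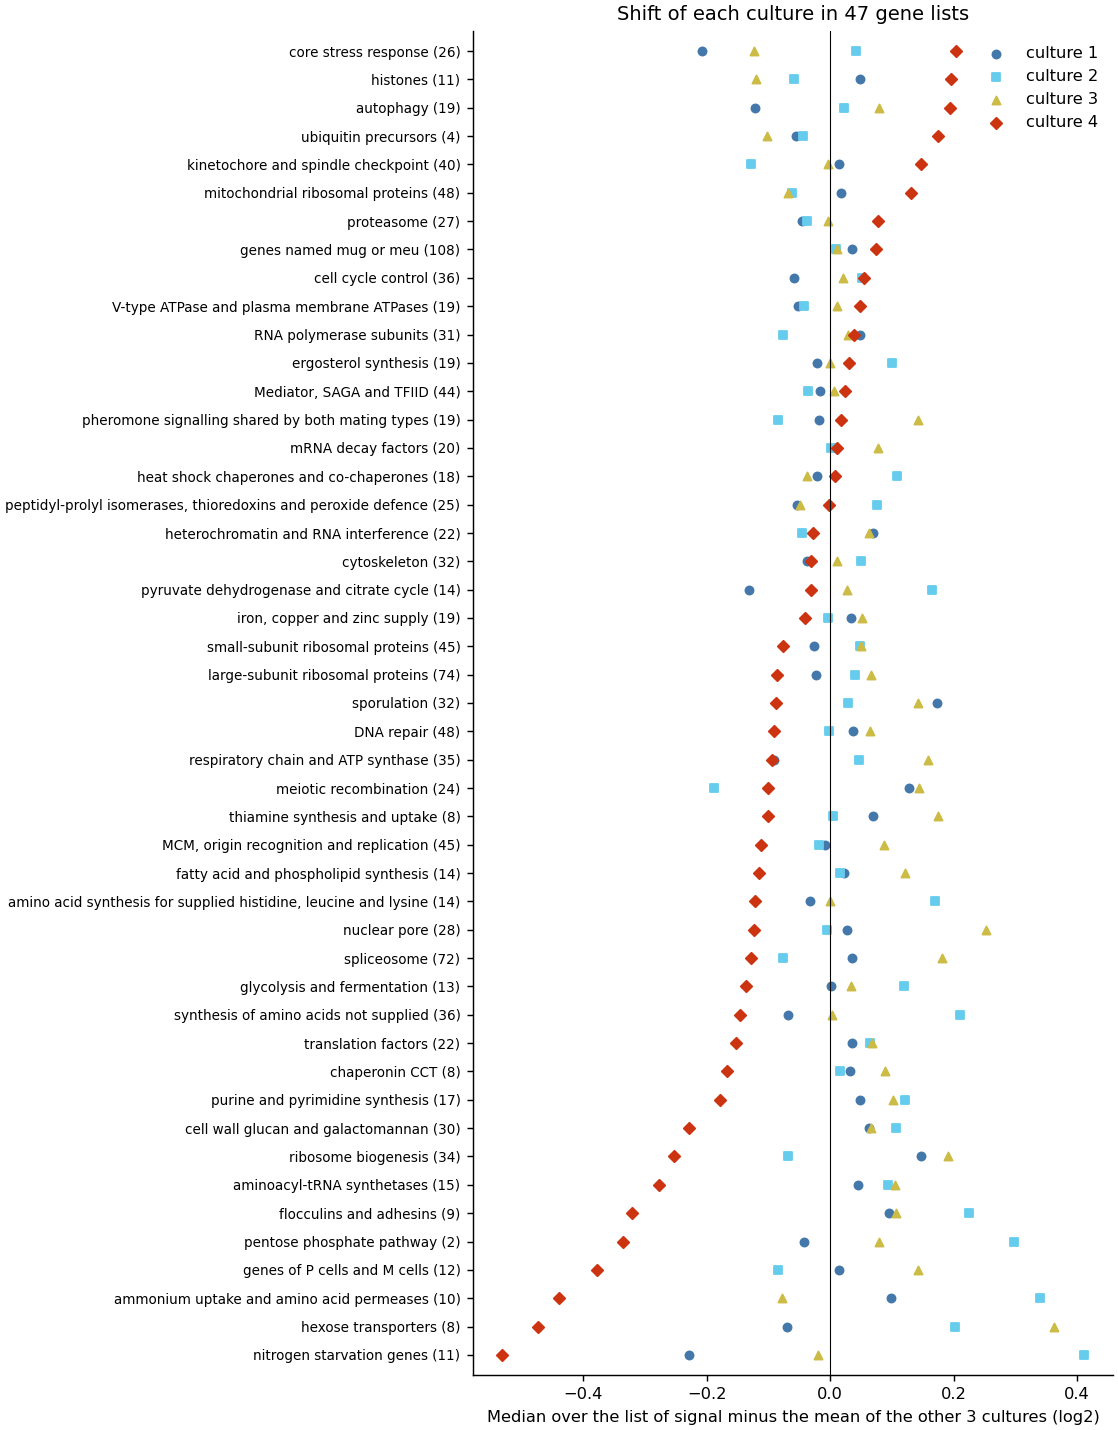
For each of 47 gene lists (rows), the median over the list of each culture's log2 signal minus the mean of the other 3 (horizontal axis). Culture 4 runs from -0.53 for nitrogen starvation genes to 0.20 for core stress genes, a wider range than any other culture. Of the nitrogen starvation genes, 7 of 11 were lower in culture 4.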

How the data were processed

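RNA of 4 wild-type cultures was used, each on its own array. Per the labels' protocols, 1 µg of RNA gave biotinylated cRNA by 3′ amplification, 5 µg of it was hybridised for 16 h, and the scans were read out with Affymetrix GeneChip Operating Software. The array type is unsettled, because the labels name a nematode array and the probe table pairs its probe sets with genes of fission yeast. The authors deposited log10 signals: the base is inferred from the values (array medians 2.90, maxima from 3.94 to 3.98), direction is not an issue with 1 RNA per array, and centring and scaling are not given in the sources used here. The 4 columns of the other strain were not used.

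Deposited values were converted to log2 and used without further scaling. Of 4994 yeast probe sets, 20 had several symbols and 2058 none and were not named; 2913 of the 2916 with 1 symbol were found in a gene table of assembly ASM294v3 and 110 symbols were updated. Probe sets matched to 2 non-coding RNAs were left out, and systematic names come from that table. Of the 2897 genes, 8 had no value. The array number limits precision to 4 cultures. With 1 group there was no comparison to test, so no p-value is given, and the spread is the sample SD.

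The ranking script was tested on simulated data. The text names the 25 highest means, the 8 nearest the median rank, the 8 lowest with 4 values, the 10 largest and 8 smallest SDs above the controls, zfs1, the 5 brightest unnamed probe sets, and in each list the brightest and dimmest 2 members or, with few members, any. Other genes were picked for naming with their values in view. The members and lists were chosen with earlier results of these data known. Several lists were corrected for wrong symbols after values were seen, and 4 lists were added then: aminoacyl-tRNA synthetases, ubiquitin precursors, pyruvate dehydrogenase and citrate cycle, and pentose phosphate pathway. Python 3.11.15, pandas 2.3.3, numpy 2.4.6, scipy 1.17.1 and matplotlib 3.10.9 were used.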

Additional observations from a re-analysis of the deposited data

Results flagged for a closer look

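In 13 of the 218 genes named in the text, 1 culture lay far from the other 3 by Dixon's test, which marks about 1 in 20 groups of 4 by chance. Some of the 218 were named for their SD or with their values in view, so the 13 cannot be weighed against that share. Among all genes above the controls the test marked 205 of 2797, or 7.33%. Culture 4 was the outlying one in 135 of these and cultures 1, 2 and 3 in 14, 33 and 23. Culture 4 was low for msa1 (7.55), bpb1 (7.75), pan1 (8.79), gua1 (11.99), mdl1 (9.39), amt3 (6.05) and mug114 (1.02), the last at control level, and high for set7 (10.17). Culture 2 was the outlying one for rpl39 (12.93), ght8 (11.77), mep33 (10.98) and cnp3 (3.68, below the brightest control), and culture 3 for prp18 (7.10). For rpl39 and mep33, both among the 8 smallest SDs, the distance is small in absolute terms: the nearest other culture read 12.90 and 11.02. What set culture 4 apart was not tested.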

How the results depend on the processing

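The 6 summary results were recomputed after centring each array on its median, after quantile normalisation, without each culture, with the mean of all probe sets of a gene, with all yeast probe sets, with complete values only and with an offset of 16 on the linear scale, where each applies. The 115 ribosomal genes in the brightest 10% stayed within 1.5 times in each setting run. The number of genes at control level, 37, was 107 over all yeast probe sets, 23 with values on all 4 arrays, 12 against the median control and 58 when the mean was compared with the mean of the brightest controls. The median SD of 0.18 ran from 0.12 to 0.19 as each culture was left out. The share of 37.8% was 38.4% over all probe sets and 21.9% for the brightest 5% of genes. The lowest rank correlation ran from 0.951 to 0.980 as each culture was left out. The number with an SD of at least 0.5, 114, was 247 over all probe sets and 4 at an SD of at least 1, and ran from 56 to 177 as each culture was left out. Of 1930 recomputed means of 215 named genes 37 moved by their SD or more, 34 under the offset, which raises dim signals, and 3 under the mean of all probe sets (mae1 to 8.68, ubi3 to 12.61 and mfm3 to 5.53). No paired analysis was possible because there was 1 strain and no test between groups. The planned correlation with protein length and the planned search of promoters for the HomolD box were not run, since no sequences were used here. In a setting chosen after seeing the data, the lists were counted again without culture 4: the brightest 10% then held 14 translation factor genes in place of 13, 10 tRNA synthetase genes in place of 9, 9 purine and pyrimidine genes in place of 8, 5 histone genes in place of 6 and 2 fatty acid genes in place of 1, and the 1 thiamine gene at control level no longer counted as such. Weak signals limit the order at the bottom, where the reporter controls reached 5.11.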

Other observations

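Position in the genome was compared with the ranking. Neighbouring ranked genes, 1688 adjacent pairs in the gene table of assembly ASM294v3, had a rank correlation of 0.0014 between their mean signals, given as a description across genes. The median signal was 9.74 on chromosome I (1293 genes), 9.72 on II (1099 genes) and 9.46 on III (494 genes), and chromosome III held 12 of the 37 genes at control level and 47 of the 289 brightest.

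Bright genes in none of the 47 lists numbered 49. Among them were ubc4, for a ubiquitin-conjugating enzyme (12.66 ± 0.06), car2, for ornithine aminotransferase (12.62 ± 0.07), cpc2, for the ribosome-bound protein RACK1 (12.57 ± 0.12), and arf1, for a GTPase of vesicle coats (12.54 ± 0.05). These were chosen after their values were seen.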
